A study of Homo sapiens with 4 samples.

Results

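Transcription of 10 genes of the actin cytoskeleton and the serum response was followed across the 4 libraries of a nascent RNA study. They were taken by symbol as ACTB, ACTG1, VCL, FLNA, SRF, MYH9, TPM3, TPM4, THBS1 and VIM, and all 10 were found among 22798 genes counted on their own strand. The cells were Karpas 299, an established line of CD30-positive anaplastic large cell lymphoma, which is a T cell lymphoma. SM-164, an antagonist of the inhibitor of apoptosis (IAP) proteins, was given for 3 h and set against its solvent DMSO given for 3 h. In the other experiment the cells lay for 3 h on Chinese hamster ovary (CHO) cells bearing CD30L, which is the CD30 ligand, and were set against cells on CHO cells without it. All cells took up bromouridine during the last 30 min, and labelled RNA was captured with an antibody against it (Bru-seq), so the values speak of RNA made in that time. Each condition has 1 library, so the differences below lack a replicate check, no test across conditions was possible, and the intervals cover counting error only. Lymphoma cells were lifted off the hamster layer by pipetting, and the deposited values do not show whether hamster RNA contributed reads.

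Actin monomers assemble into filaments that give a lymphocyte its shape, its grip and its motility. Serum response factor (SRF) is a transcription factor that binds a short DNA element called the CArG box and works with partners of the MRTF or the ternary complex factor (TCF) kind. MRTF proteins are held back by actin monomers, so that SRF targets, which include actin genes themselves, are transcribed more when monomers are used up by filament assembly.

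Because SRF is known to bind the CArG box, the promoter stretches that hold one are shown, although SRF binding was not measured here. It consists of a pair of C, a run of A or T letters and a pair of G, and its reverse complement has the same form, so a search of 1 strand covers both. RefSeq promoter windows (GRCh38.p14), from 250 bases before to 50 bases after a gene's start, were matched by symbol for 9 of the 10 genes, and ACTB was not matched. A perfect CArG box stood in a window of 4 of the 9 genes (SRF, ACTG1, TPM4 and FLNA). The same was true of 438 of all 27305 genes with a window (1.60%). The 10 genes were listed as serum response genes, so this share is no independent evidence. Each line gives the coding strand from 5′ to 3′, with the CArG box in capitals.
SRF: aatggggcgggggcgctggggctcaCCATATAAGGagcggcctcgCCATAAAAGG
ACTG1: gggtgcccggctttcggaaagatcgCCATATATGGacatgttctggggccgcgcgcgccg
TPM4: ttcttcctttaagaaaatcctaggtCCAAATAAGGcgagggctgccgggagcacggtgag
FLNA: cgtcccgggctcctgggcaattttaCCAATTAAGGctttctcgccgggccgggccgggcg

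The SRF stretch lies at chr6:43171214-43171268 on the plus strand and ends 1 base before the gene's start. Its 2 boxes begin 30 and 10 bases upstream of that start. The ACTG1 stretch lies at chr17:81512859-81512918 on the minus strand, with its box 94 bases upstream. The TPM4 stretch lies at chr19:16067340-16067399 on the plus strand, in 1 of the 3 windows of that gene, with its box 173 bases upstream. The FLNA stretch lies at chrX:154374694-154374753 on the minus strand, also with its box 94 bases upstream. In the windows of VIM, VCL, THBS1, MYH9 and TPM3 these letters were not found, which says nothing of SRF binding elsewhere.

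Library totals were 26217590.2 reads with SM-164, 31030478 reads with DMSO, 45535365 reads on CD30L+ CHO cells and 45885631 reads on CHO cells, as recovered from the deposited values. Levels are RPKM, the authors' read number scaled to the counted bases of a gene and to the library total, over exons and introns together. The cell identity was checked by markers. TNFRSF8, which encodes CD30, lay between 4.97 and 12.4 RPKM in the 4 libraries, the interleukin 2 receptor gene IL2RA between 14.7 and 28.9, and the leukocyte gene PTPRC between 5.53 and 6.65. The T cell genes CD3E and CD2 had at most 2 reads in any library, and CD7 had 0 in all of them. ALK, also on the list of lymphoma markers, lay between 0.0966 and 0.137 RPKM, and CD5 reached at most 0.0586 RPKM. Of 12 T cell and lymphoma markers, 6 reached 0.5 RPKM on CD30L+ CHO cells and 7 in each other library. Of 8 B cell, myeloid and NK markers, the myeloid receptor gene CSF1R lay between 0.653 and 0.752 RPKM and the NK receptor gene KLRD1 between 0.501 and 0.632 RPKM, and LYZ reached 0.600 RPKM on CHO cells. None of 6 epithelial markers reached 0.5 RPKM.

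**Figure D1:**
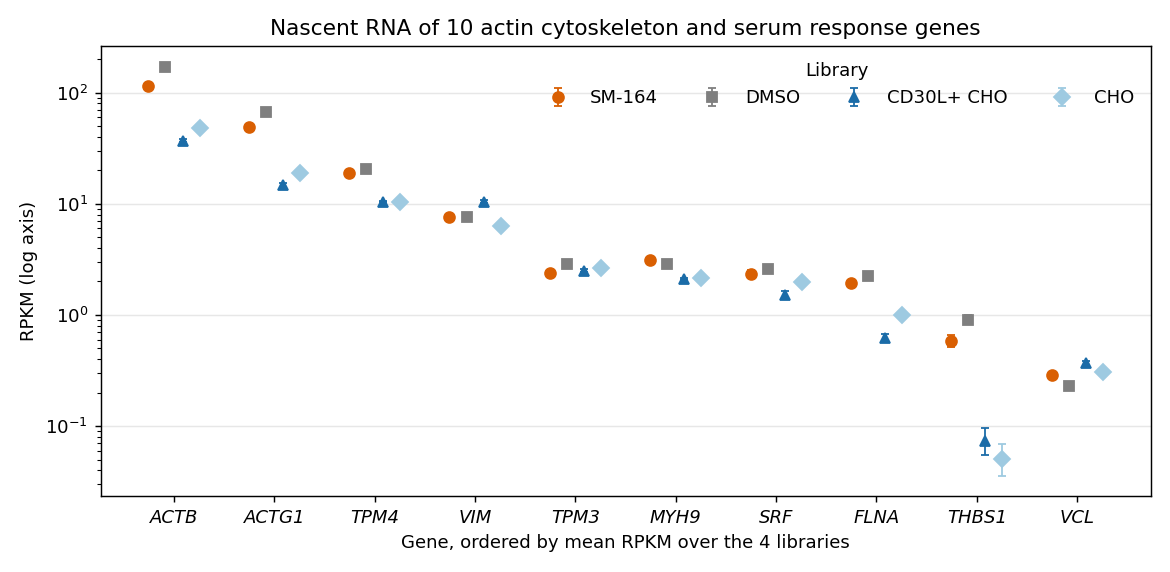
RPKM (log axis) of the 10 genes in the 4 libraries, 1 point per library, with 95% Poisson counting intervals. ACTB and ACTG1 were the highest of the 10 in every library, and THBS1 spread most, from 0.0505 RPKM on CHO cells to 0.908 RPKM with DMSO.

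Among the genes of the filament itself, ACTB and ACTG1, which encode the cytoplasmic beta- and gamma-actins, stood above the other 8 in every library. ACTB reached 115 RPKM with SM-164, 170 RPKM with DMSO, 36.9 RPKM on CD30L+ CHO cells and 47.7 RPKM on CHO cells. ACTG1 reached 49.1 RPKM with SM-164, 66.4 RPKM with DMSO, 14.7 RPKM on CD30L+ CHO cells and 18.8 RPKM on CHO cells. Both genes were lower in the treated library than in its own control, and both co-culture libraries lay below both drug libraries. In bulk libraries such as these, fewer cells of a type and less RNA per cell cannot be told apart. The level of ACTB over that of ACTG1 stayed between 2.35 and 2.55 in all 4 libraries. Both have many processed pseudogenes and encode nearly identical proteins, so reads may have been split or lost, and their absolute levels are uncertain. In hg19, the build of the files, ACTB lies on chromosome 7 from 5566779 to 5570232 and ACTG1 on chromosome 17 from 79476997 to 79479892, both on the minus strand.

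The tropomyosins wind along actin filaments and control which proteins bind them. TPM4 was the third highest of the 10 in 3 libraries and about level with VIM on CD30L+ CHO cells, at 10.4 RPKM each. It had 19.1 RPKM with SM-164, 20.6 RPKM with DMSO and 10.4 RPKM on CHO cells, so the co-culture libraries lay apart from the drug libraries and close to each other. TPM3 varied least of all 10, by 1.19-fold between its highest and lowest library. It had 2.41 RPKM with SM-164, 2.85 RPKM with DMSO, 2.51 RPKM on CD30L+ CHO cells and 2.63 RPKM on CHO cells. TPM4 lies on the plus strand of chromosome 19 from 16178317 to 16213813, and TPM3 on the minus strand of chromosome 1 from 154127780 to 154164609. Tropomyosin genes also have close copies, so the counts of both are uncertain.

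MYH9, the heavy chain of non-muscle myosin IIA, the motor that pulls on actin filaments, had 3.14 RPKM with SM-164, 2.86 RPKM with DMSO, 2.10 RPKM on CD30L+ CHO cells and 2.13 RPKM on CHO cells. FLNA, or filamin A, which crosslinks filaments and ties them to membrane proteins, had 1.92 RPKM with SM-164, 2.22 RPKM with DMSO, 0.621 RPKM on CD30L+ CHO cells and 1.00 RPKM on CHO cells. The counting intervals of the 4 FLNA values do not overlap, and neither do those of ACTB or ACTG1. Counting intervals narrow as reads increase, and the share of all genes without overlap was not computed. VCL, or vinculin, which links integrin adhesions to actin, was low throughout, with 0.289 RPKM with SM-164, 0.228 RPKM with DMSO, 0.372 RPKM on CD30L+ CHO cells and 0.305 RPKM on CHO cells. Alone among the 10 it was lowest with DMSO. MYH9 lies on the minus strand of chromosome 22 from 36677323 to 36784063, FLNA on the minus strand of chromosome X from 153576900 to 153603006, and VCL on the plus strand of chromosome 10 from 75757872 to 75879914.

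SRF itself had 2.34 RPKM with SM-164, 2.57 RPKM with DMSO, 1.51 RPKM on CD30L+ CHO cells and 1.97 RPKM on CHO cells. VIM, the intermediate filament protein vimentin, had 7.67 RPKM with SM-164, 7.57 RPKM with DMSO, 10.4 RPKM on CD30L+ CHO cells and 6.37 RPKM on CHO cells. VIM and VCL were the 2 genes of the 10 with their highest value on CD30L+ CHO cells. THBS1, or thrombospondin 1, a secreted matrix protein and a classical serum-induced gene, had 0.586 RPKM with SM-164, 0.908 RPKM with DMSO, 0.0737 RPKM on CD30L+ CHO cells and 0.0505 RPKM on CHO cells. All 3 lie on the plus strand, SRF on chromosome 6 from 43138920 to 43149244, VIM on chromosome 10 from 17270258 to 17279592 and THBS1 on chromosome 15 from 39873280 to 39889668.

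SM-164 against DMSO asked what a synthetic IAP antagonist does to transcription. The actin genes and THBS1 were lower with SM-164, MYH9 slightly higher, and none of the 10 differed by 2-fold. Genes entered the comparison with 300 or more counted bases and an RPKM averaging 0.5 or more over both libraries, and 9 of the 10 passed, VCL being too low. Of these, 0 were called at 2-fold, where 0.254% of all 7881 genes compared were, 0.19% higher and 0.0634% lower. At 1.5-fold on the log2 scale of RPKM + 0.25 the count was again 0. Of all genes, 0.787% were called higher at 1.5-fold and 1.1% lower, 1.89% in all. The median log2 ratio of RPKM + 0.25 was -0.19 over these 9, against -0.042 over all genes compared, and 7 of the 9 were below 0, as were 63.3% of all genes.

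ACTB was at 0.680 of its DMSO level (95% counting interval 0.664 to 0.696), from 10442 reads with SM-164 and 18178 with DMSO. ACTG1 was at 0.739 (0.709 to 0.770). THBS1 was at 0.646 (0.552 to 0.754), from 252 reads with SM-164 and 462 with DMSO. That ratio is beyond 1.5-fold, but with 0.25 RPKM added to both levels the log2 ratio of THBS1 was -0.47, short of 1.5-fold. TPM3 was at 0.843 (0.799 to 0.890), FLNA at 0.865 (0.805 to 0.929) and TPM4 at 0.924 (0.906 to 0.943). MYH9 was 1.10-fold higher (1.06 to 1.13), and VCL, below the filter, 1.27-fold higher (1.15 to 1.39). For SRF, at 0.910 (0.819 to 1.01), and VIM, at 1.01 (0.952 to 1.08), the counting interval holds 1.

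Gene length moves with these differences. Genes near ACTB in counted bases, of which ACTB has 3454, had a running median log2 ratio of -0.20, and ACTB itself had -0.56. Near ACTG1, with 2896 bases, the running median was -0.23, and ACTG1 had -0.43. For MYH9, with 106741 bases, it was 0.018 beside a log2 ratio of 0.12 for the gene. The part of length in the differences was not tested.

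**Figure D2:**
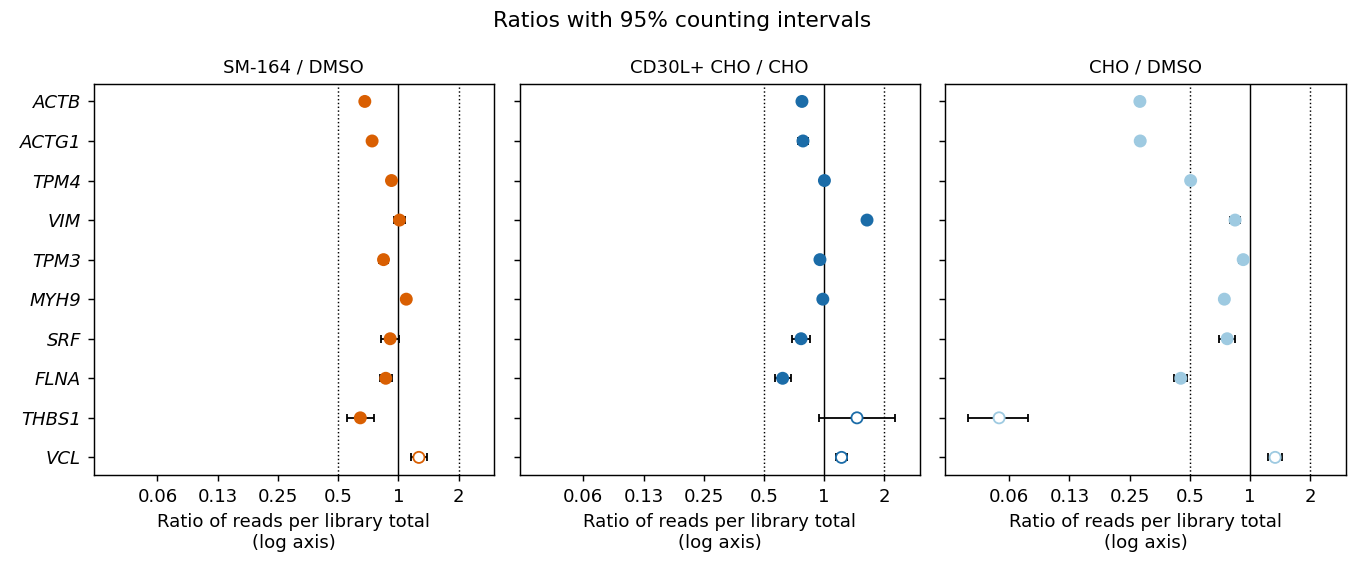
Ratio of reads per library total (log axis) of each gene in the 3 comparisons, with 95% counting intervals. Filled points passed the filter on low values, open points did not, and dotted lines mark 2-fold. All 10 lie inside the 2-fold lines with SM-164 and with CD30L, while ACTB, ACTG1, FLNA and THBS1, at 0.281, 0.282, 0.450 and 0.0556, lie outside them for CHO cells over DMSO.

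CD30L+ CHO against CHO asked what engagement of CD30 does beyond contact with the hamster cells. VIM stood out on the higher side and FLNA on the lower side, while both actins and SRF were moderately lower. VIM was 1.64-fold higher on CD30L+ CHO cells (1.56 to 1.72), from 4435 reads against 2730 on CHO cells. For FLNA the ratio was 0.620 (0.565 to 0.680), from 738 reads on CD30L+ CHO cells against 1200. SRF was at 0.766 (0.694 to 0.846), ACTB at 0.774 (0.748 to 0.801) and ACTG1 at 0.783 (0.738 to 0.832).

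The other genes differed little. TPM4 was at 1.00 (0.981 to 1.02), MYH9 at 0.984 (0.958 to 1.01) and TPM3 at 0.952 (0.913 to 0.993). The log2 ratios of MYH9, -0.020, and TPM3, -0.064, turned positive when the median of all genes was set to 0, under TMM scaling and with the length trend subtracted, so these 2 genes have no direction here. VCL, below the filter, was 1.22-fold higher (1.14 to 1.30). THBS1, also below it, had 55 reads on CD30L+ CHO cells and 38 reads on CHO cells, a ratio of 1.46 whose interval, 0.947 to 2.27, holds 1.

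Of the 10 genes, 8 passed the filter and 0 were called at 2-fold, against 1.71% of 7661 genes compared, 0.979% higher and 0.731% lower. At 1.5-fold on the log2 scale VIM was the 1 gene called, on the higher side, where 2.62% of all genes were called higher, 4.99% lower and 7.61% in all. The median log2 ratio was -0.20 over the 8 and -0.12 over all genes, of which 72.0% were below 0. TMM scaling, which sets libraries level by the bulk of their genes, moved the median of all genes by 0.17. Under it VIM had a log2 ratio of 0.89 and FLNA -0.37, with ACTB at -0.16, SRF at -0.16 and ACTG1 at -0.14. Genes as long as ACTB had a running median of -0.23 in this comparison, beside -0.37 for ACTB. The same median was -0.20 near VIM, which had 0.69, and -0.10 near FLNA, which had -0.52.

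**Figure D3:**
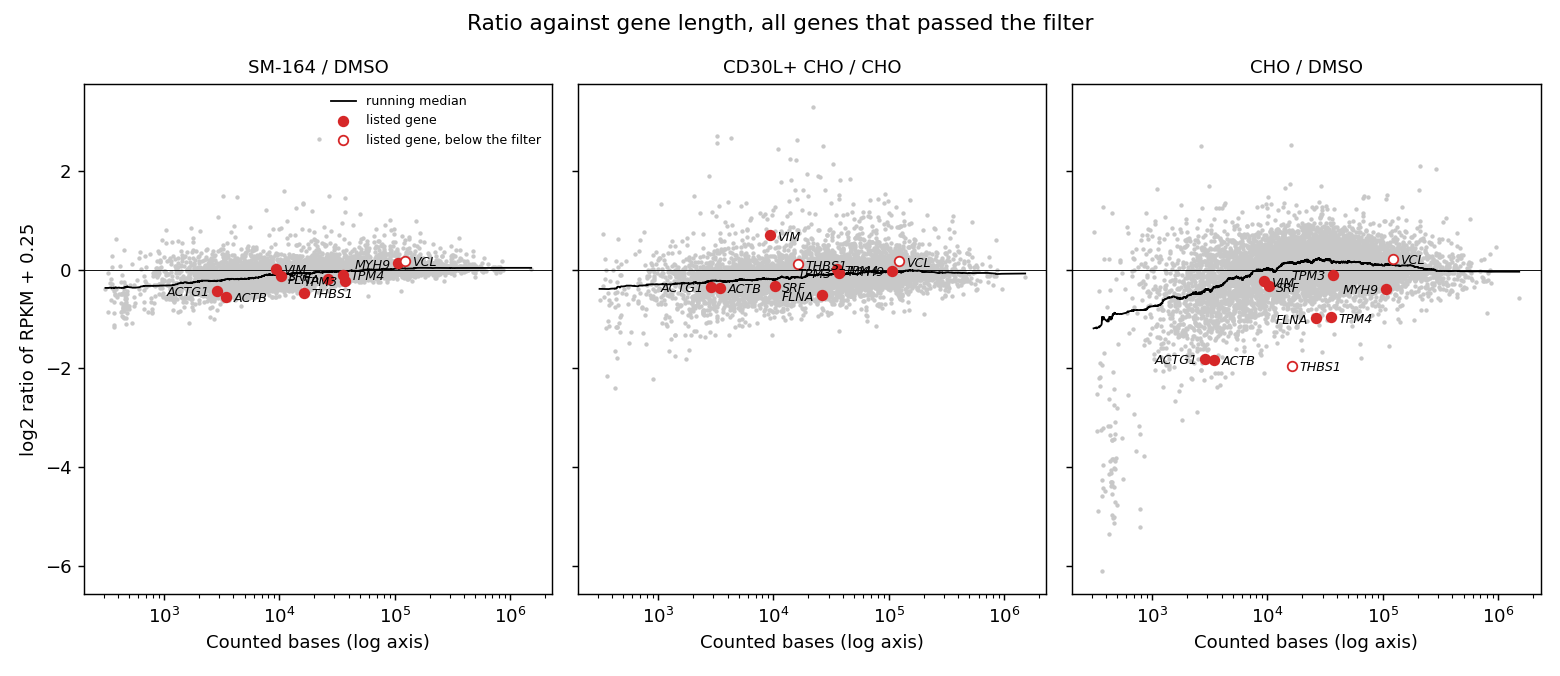
Log2 ratio of RPKM + 0.25 against counted bases (log axis) for all genes that passed the filter (grey), with the running median over 301 genes (line) and the 10 genes (red, open where below the filter). ACTB and ACTG1 are among the shorter genes, where the line lies below 0 in all 3 panels. VIM lies above the line in the CD30L panel, and FLNA and TPM4 lie far below it in the CHO / DMSO panel.

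CHO against DMSO set the controls of both experiments side by side, without SM-164 or CD30L. Here ACTB, ACTG1, FLNA, TPM4, MYH9, VCL and THBS1 lay further from a ratio of 1 than in either treatment comparison, while SRF, VIM and TPM3 did not. ACTB was at 0.281 of its DMSO level (0.274 to 0.289), with 47.7 RPKM on CHO cells against 170 RPKM with DMSO. ACTG1 was at 0.282 (0.269 to 0.296), FLNA at 0.450 (0.418 to 0.485) and TPM4 at 0.505 (0.495 to 0.515). MYH9 was at 0.744 (0.723 to 0.765), SRF at 0.768 (0.699 to 0.845), VIM at 0.841 (0.795 to 0.891) and TPM3 at 0.924 (0.883 to 0.967). VCL, below the filter, was 1.34-fold higher on CHO cells (1.23 to 1.45).

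ACTB and ACTG1 were the 2 of 8 genes past the filter that were called, both lower, where 4.52% of 8081 genes were called lower, 0.879% higher and 5.4% in all. At 1.5-fold FLNA and TPM4 were called lower as well, which makes 4 of 8, where 10.7% of all genes were called lower, 7.07% higher and 17.8% in all. All 8 had a log2 ratio below 0 and a median of -0.68, against a median of 0.059 over all genes, of which 43.8% were below 0. Markers of the lymphoma cells themselves were lower as well: all 7 T cell and lymphoma markers past the filter were below 0, with a median of -0.91, and 3 of them were at least 2-fold lower. TNFRSF8 had 4.97 RPKM on CHO cells against 9.59 RPKM with DMSO, and BATF3, a transcription factor gene of this lymphoma, had 4.94 RPKM on CHO cells against 12.1 RPKM with DMSO. Their part in the lower values of the 10 genes was not tested. FLNA, at -0.98, and TPM4, at -0.97, were just short of 2-fold on this scale. The running median at their lengths lay on the other side of 0: it was 0.21 near FLNA and 0.19 near TPM4, while near ACTB, which had -1.82, it was -0.36. The 4 genes with a CArG box in their window had log2 ratios from -1.81 for ACTG1 to -0.34 for SRF. All 8 genes past the filter were lower on CHO cells, so this direction does not set these 4 apart. A part of the CArG box in it was not tested. Of the 5 genes with a window and no box, MYH9, VIM and TPM3 had log2 ratios from -0.39 to -0.10, THBS1, below the filter, had -1.95, the lowest of all 10, and VCL, also below it, had 0.21. ACTB, with no window, had -1.82. Contact with CHO cells, the experiment and the handling of the cells cannot be told apart in this comparison.

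THBS1 had 38 reads on CHO cells and 462 with DMSO, a ratio of 0.0556 (0.0389 to 0.0775), but its mean level was below the filter. Between these controls fibroblast genes moved with THBS1: 13 of 13 markers with reads were lower on CHO cells. Their summed reads per library total were at 0.333 (0.298 to 0.372). On CD30L+ CHO cells relative to CHO cells the sum was at 0.663 (0.574 to 0.766), with 9 of 11 markers lower. THBS1 did not follow there, with 55 reads against 38 and an interval that holds 1. Over all 15 stromal and fibroblast markers, the summed level was 0.310 RPKM with SM-164, 0.449 RPKM with DMSO, 0.0589 RPKM on CD30L+ CHO cells and 0.101 RPKM on CHO cells. None of the 15 reached 0.5 RPKM in any library, and POSTN and DCN, which mark matrix-producing fibroblasts, had 0 reads in all 4.

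FN1, which encodes the matrix protein fibronectin, had 78 reads with SM-164, 148 with DMSO, and 10 in each co-culture library. TIMP3, an inhibitor of matrix proteases, had 79 reads with SM-164, 165 with DMSO, 9 on CD30L+ CHO cells and 6 reads on CHO cells. CALD1, the actin-binding caldesmon and a gene of the MRTF target list, had 247 reads with SM-164, 461 with DMSO, 24 on CD30L+ CHO cells and 12 reads on CHO cells. FN1, TIMP3 and CALD1 were thus detected mainly in the drug experiment, as THBS1 was, and they were not equally high in its libraries. This does not hold for every marker: CAV1 had 31 reads with SM-164, 60 with DMSO, 26 on CD30L+ CHO cells and 47 reads on CHO cells. SM-164 over DMSO was 0.634 for CALD1 (0.541 to 0.742), 0.624 for FN1 (0.468 to 0.826) and 0.567 for TIMP3 (0.428 to 0.745), beside 0.646 for THBS1. CALD1, FN1 and TIMP3 were chosen after their values were seen. COL4A2, the marker with most reads, was at 0.930 (0.805 to 1.07). Summed over all 15 markers, SM-164 over DMSO was 0.775 (0.701 to 0.857), nearer to 1 than for THBS1, with 12 of 13 markers with reads lower. Whether RNA of another cell type had a part in the THBS1 values was not tested.

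**Figure D4:**
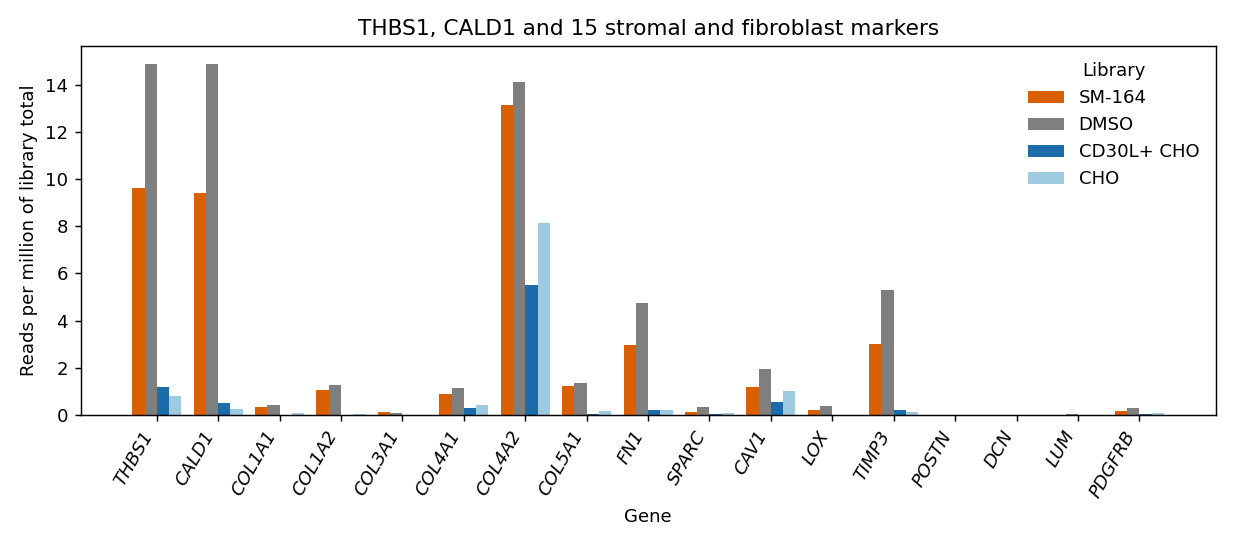
Reads scaled to the library total (RPM) for THBS1, CALD1 and the 15 stromal and fibroblast markers, 1 bar per library. THBS1, CALD1, FN1 and TIMP3 share the order DMSO above SM-164 with both co-culture libraries near 0, while COL4A2 keeps 251 reads on CD30L+ CHO cells and 374 reads on CHO cells.

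The wider actin and SRF genes were taken from 9 lists with 125 genes. With SM-164, 0 genes past the filter in any of the 9 lists reached 2-fold, where 0.254% of all genes did. The list medians lay between -0.17 and -0.0028, on both sides of the median of all genes, -0.042, and 4 of the 9 were positive under TMM scaling. With CD30L the list medians lay between -0.30 and 0.050, and 1 gene passed 2-fold, on the lower side, where 0.731% of all genes were called lower and 1.71% in all. List medians this close to 0 change sign with the scaling: with CD30L the medians of all lists but the MRTF targets were positive under TMM scaling.

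CORO1A, the leukocyte actin regulator coronin 1A, was that gene, at 0.266 (0.162 to 0.420) from 24.1 reads on CD30L+ CHO cells against 90.5. Only 1716 of its 5667 bases were counted. With 0.308 RPKM on CD30L+ CHO cells and 1.15 RPKM on CHO cells, it passed the filter through the CHO library. Its log2 ratio of -1.33 was -0.72 with a pseudocount of 1, short of 2-fold, and it was not compared at a minimum of 1 RPKM.

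Among the partners of SRF, 7 of 12 genes passed the filter and 0 reached 2-fold, beside 0.254% of all genes with SM-164 and 1.71% with CD30L. The MRTF gene MKL1 had a log2 ratio of 0.059 with SM-164 and -0.012 with CD30L, and the MRTF gene MKL2 -0.0092 with SM-164 and -0.14 with CD30L. All 3 negative values turned positive under TMM scaling. ELK3, a ternary complex factor, was 1.58-fold higher with SM-164 (1.51 to 1.66) and 1.36-fold higher on CD30L+ CHO cells (1.31 to 1.41).

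Of 18 further MRTF-type targets, 5 passed the filter in each treatment comparison. CNN2, the actin-binding calponin 2, was at 0.711 with SM-164 (0.641 to 0.789) and at 0.518 on CD30L+ CHO cells (0.449 to 0.596). TAGLN2, or transgelin 2, was at 0.879 (0.790 to 0.977) with SM-164 and at 0.765 (0.692 to 0.845) with CD30L. Of 9 TCF-type targets, 2 passed with SM-164 and 3 with CD30L. Among these, MCL1, an anti-apoptotic gene, was 1.25-fold higher on CD30L+ CHO cells (1.22 to 1.28) and the immediate-early gene IER2 was at 0.773 (0.650 to 0.917).

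The 15 genes past the filter that supply and turn over actin monomers had a median log2 ratio of -0.031 with SM-164, beside -0.042 over all genes, and a few of them lay well below it. TMSB10 and TMSB4X, the monomer-binding beta-thymosins, were at 0.659 (0.623 to 0.697) and 0.708 (0.689 to 0.726), close to the ratios of ACTB and ACTG1. Both are short, and the running median at their length was -0.33 for TMSB10 and -0.23 for TMSB4X, beside log2 ratios of -0.60 and -0.50. With CD30L, TMSB4X was at 1.01 (0.976 to 1.05), while TMSB10 was at 0.759 (0.700 to 0.821) and PFN2, a profilin, at 0.534 (0.455 to 0.626).

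The Arp2/3 complex nucleates branched filaments. Its list had 15 of 16 genes past the filter and 0 at 2-fold in both treatment comparisons, beside the same 0.254% and 1.71% of all genes. ACTR3, a core subunit, was 1.17-fold higher with SM-164 (1.15 to 1.20) and 1.32-fold higher with CD30L (1.30 to 1.34). WAS, its activator in blood cells, was at 0.770 (0.662 to 0.894) with SM-164 and at 0.676 (0.591 to 0.772) with CD30L.

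Crosslinkers and adhesion genes lay on both sides of 1 with CD30L. RDX, or radixin, which ties actin to the membrane, was 1.67-fold higher (1.62 to 1.73), LCP1, the leukocyte filament bundler L-plastin, 1.56-fold (1.54 to 1.58), and LPXN, the leukocyte adhesion adaptor leupaxin, 1.43-fold (1.39 to 1.47). The crosslinker ACTN4 was at 0.567 (0.546 to 0.588), the integrin activator FERMT3 at 0.560 (0.504 to 0.623) and the myosin MYO1F at 0.586 (0.543 to 0.632). The nuclear lamina gene LMNA, an intermediate filament gene like VIM, was 1.18-fold higher (1.08 to 1.29), and LMNB1 was at 0.939 (0.921 to 0.957), a direction that turned under TMM scaling and with the median of all genes at 0.

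**Figure D5:**
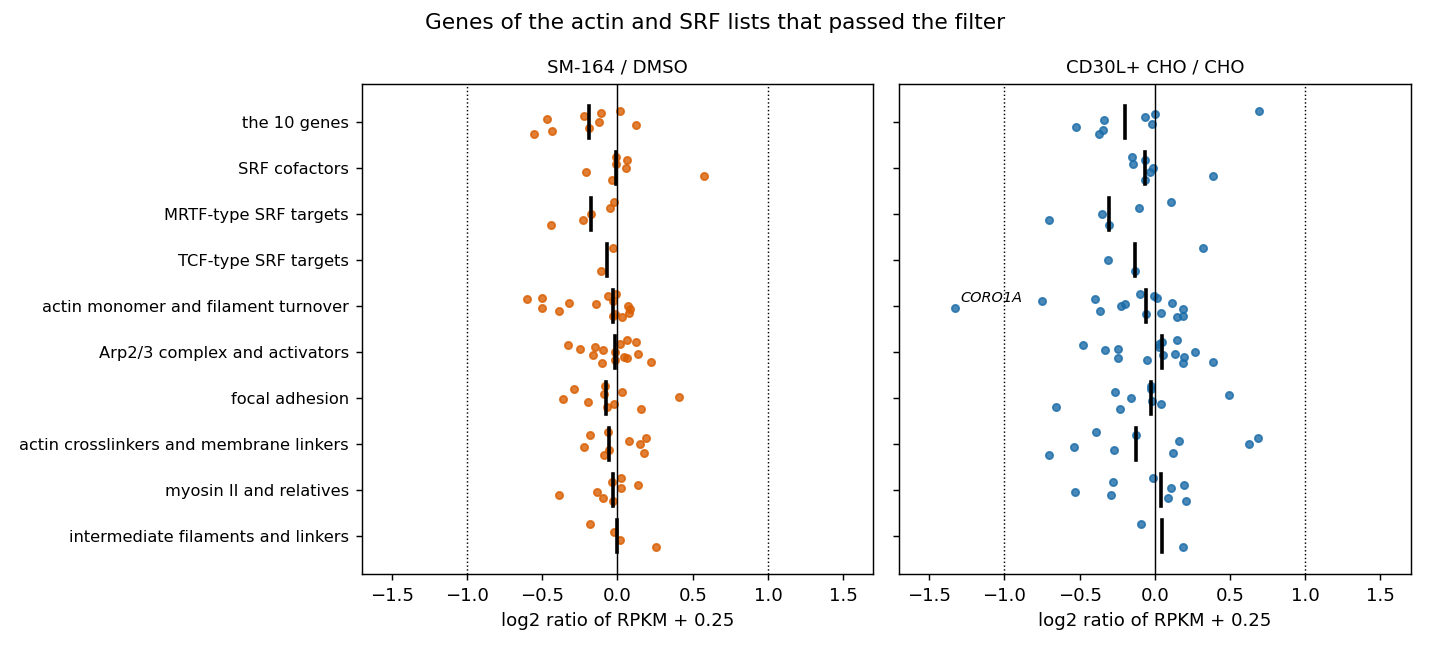
Log2 ratio of RPKM + 0.25 for each gene past the filter in the 10 genes and the 9 wider lists (points), with list medians (black bars) and 2-fold (dotted lines). No point passes 2-fold with SM-164, and CORO1A passes it with CD30L.

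Likeness over the 4 libraries was measured as the Euclidean distance between log2 values of RPKM + 0.25, each gene centred on its own mean, among 7861 genes. The 5 genes nearest to ACTB were TMSB10 at 0.039, ACTG1 at 0.095, SAMD1 at 0.12, HIST1H2BK at 0.15 and KIF22 at 0.16. The 5 nearest to SRF were ANP32A, PTPN18, RAB3D, MRPL11 and APH1A, at distances from 0.024 to 0.036. Within the 10 genes, ACTB and ACTG1 were nearest to each other, as were FLNA and TPM4 at 0.45, SRF and MYH9 at 0.28, and VCL and TPM3 at 0.40. VIM was nearest to VCL at 0.40 and THBS1 to ACTG1 at 0.34. VCL and THBS1, at mean levels of 0.299 and 0.405 RPKM, were too low to be among the 7861 genes. At such levels the pseudocount of 0.25 RPKM narrows differences between libraries, so their distances depend on it. Each distance rests on 4 libraries only, so the distances are a description.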

How the data were processed

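The build hg19 and the tools bedtools 2.16.2, TopHat 1.4.1, Bowtie 0.12.8 and CASAVA 1.8.2 are named per the submitters' processing notes, with their roles and the SM-164 dose and gene annotation not given in the sources used here. The authors deposited an estimated count of reads per feature, the signal per counted base and the RPKM, 1 file per library, with exons and introns together. Per the labels' protocols, strand marking applied to certain samples only. Dividing the deposited signal by the RPKM gave the library totals. Sense features alone were compared, and a repeated symbol kept the entry with most counted bases.

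The log2 ratio had a pseudocount of 0.25 RPKM, which understates differences of low genes, and a call meant 2-fold. Ratios in the text are reads per library total without a pseudocount, with counts rounded to whole reads and exact (Clopper-Pearson) 95% intervals. Without molecular identifiers, PCR copies cannot be told from separate molecules. The 10 genes, the lists and the rules were chosen with earlier results of these data known. Named were all 10 genes, and per wider list and treatment comparison up to 3 genes with the largest absolute log2 ratio. MKL1, MKL2 with SM-164, TMSB4X with CD30L and the fibroblast genes were named after their values were seen. One further group of genes is not reported here. The procedure was tested on simulated counts with planted changes and counting noise only, so that test did not cover variation between libraries. TMM scaling of the counts used edgeR 4.0.16 in R 4.3.3. Other steps used scipy 1.17.1 for intervals, pandas 2.3.3 with numpy 2.4.6 for tables, and matplotlib 3.10.9 for plots, under Python 3.11.15.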

Additional observations from a re-analysis of the deposited data

How the results depend on the processing

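Other pseudocounts (0.1, 1), filters (no minimum on the mean RPKM, a minimum of 1, 1000 counted bases), scalings (median of all genes at 0, TMM), subtraction of the length trend, summed repeated symbols and a 1.5-fold threshold were tried. With SM-164 the median of the 10 genes stayed between -0.20 and -0.14. The count at 2-fold stayed 0, and at 1.5-fold, with the pseudocount of 0.25 RPKM, it was 0 too. With CD30L the median, -0.20, was -0.042 with no minimum, -0.064 with a minimum of 1 RPKM, -0.084 with the median of all genes at 0, -0.011 under TMM scaling and -0.046 with the length trend subtracted, so the lower median rests on the setting. The count at 1.5-fold, with the pseudocount of 0.25 RPKM, was 1. For CHO against DMSO the median, -0.68, was -0.50 with a pseudocount of 1, -0.78 under TMM scaling and -0.82 with the length trend subtracted. The count, 2, was 4 with the median at 0, under TMM scaling, with the length trend subtracted and at 1.5-fold, when FLNA and TPM4 joined ACTB and ACTG1. FLNA alone joined them with a pseudocount of 0.1, and THBS1 alone with no minimum on the mean RPKM. Of 721 values of single genes under an alternative, 18 changed sign, all of them for genes that were not called. All 18 arose with the median of all genes at 0, under TMM scaling or with the length trend subtracted. Other pseudocounts and filters cannot change the sign of a gene's ratio, so 721 overstates how many values could have changed. No paired analysis was possible because each condition has 1 library, and for the same reason no library could be left out.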

Other observations

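Reads on the opposite strand add a further readout of the same genes. VCL had 206 antisense reads with SM-164, 270 with DMSO, 489 on CD30L+ CHO cells and 537 reads on CHO cells, which is 22.2%, 31.2%, 23.6% and 31.5% of its sense reads in the same order. THBS1 had 27 antisense reads against 55 sense reads on CD30L+ CHO cells, and 39 antisense against 38 sense reads on CHO cells, so in the CHO library its sense reads did not outnumber those of the opposite strand. ACTB and ACTG1 had at most 3 antisense reads in any library. TPM3 antisense reads were at 0.609 (0.459 to 0.804) on CD30L+ CHO cells relative to CHO cells, and those of TPM4 at 0.732 (0.589 to 0.909), while the sense reads of both genes were at 0.952 and 1.00. MYH9 antisense reads were lower too, at 0.426 (0.190 to 0.893) from 11 reads against 26. An antisense ratio over all genes was not computed.

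Several wider actin genes differed more between the controls than with either treatment, and were chosen after their values were seen. On CHO cells relative to DMSO, CORO1A was at 0.155 (0.122 to 0.195), TMSB10 at 0.282 (0.265 to 0.300), TMSB4X at 0.301 (0.292 to 0.310) and CFL1, the filament-severing cofilin, at 0.366 (0.342 to 0.392). On the higher side were the immediate-early gene EGR1 at 3.04-fold (2.30 to 4.08), PFN2 at 2.79-fold (2.26 to 3.46) and the crosslinker ACTN1 at 2.52-fold (2.38 to 2.67). With the pseudocount ACTN1 was short of 2-fold, since the highest log2 ratio among MRTF-type targets was 0.989. Of the 15 monomer and filament turnover genes past the filter in this comparison, 5 were at least 2-fold lower and 1 was at least 2-fold higher, where 4.52% and 0.879% of all genes were.

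The 10 genes together took 0.183% of all reads with SM-164, 0.212% with DMSO, 0.103% on CD30L+ CHO cells and 0.106% of reads on CHO cells.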
